A study of Drosophila melanogaster with 42 samples.

Results

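On the X chromosome of late Drosophila melanogaster embryos, some regions were listed as carrying H4K16ac, histone H4 acetylated at lysine 16, on chromatin cut with micrococcal nuclease (MNase) but not on sonicated chromatin. These MNase-only regions were defined by 2 deposited region lists of 11-12 h embryos: a region of the MNase list on the X was taken where it shared no base with any region of the sonicated list. The rule took 323 of the 834 X regions of the MNase list, 38.7% (95% Wilson interval 35.5 to 42.1%). The other 511 X regions of that list, which share at least 1 bp with a sonicated region, are called shared regions here. Absence from the sonicated list and the distance to it were chosen by the rule and are given as a description. The shared regions include 121 that were not in the MNase list of 3-4 h. They are called new shared regions with respect to that list only, since 25 of them were in the sonicated list of 3-4 h. These 121 are given beside the 2 sets as a closer match, because only 10 MNase-only regions were in the earlier MNase list.

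The study mapped MSL2, MOF, H4K16ac and H3K36me3 by chromatin immunoprecipitation and sequencing in embryos of 11-12 h and 3-4 h, with 26 immunoprecipitated samples and 16 inputs. On MNase chromatin, MSL2, MOF and H4K16ac had 3 samples each at 11-12 h and 3 each at 3-4 h. On sonicated chromatin, H4K16ac and H3K36me3 had 2 samples each at 11-12 h and 2 each at 3-4 h. The labels gave 2.9 units of MNase per gram of embryos at 11-12 h and 0.9 units at 3-4 h, and no sex or genotype for either stage. Each of the 12 deposited lists stands for 1 target, preparation and stage, holds positions only, and joins the samples of its group. There is therefore no value per sample, the depth behind a region is unknown, and no difference could be set against a spread between replicates. The labels' sample letters put the H3K36me3 samples in the same sonicated series as the H4K16ac list that the rule used for absence, and MOF in the same MNase series as the H4K16ac list used for presence.

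In flies the X of males is transcribed at a raised level through the male-specific lethal (MSL) complex. MSL2 is the subunit that finds the X, MOF is the acetyltransferase that places H4K16ac, and the complex spreads from its entry sites to transcribed genes, whose bodies carry H3K36me3, methylation of histone H3 at lysine 36. MOF also acts in a second complex, NSL, at promoters on all chromosomes in both sexes.

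MNase-only regions were narrow. Their median width was 1511 bp (95% interval 1308 to 1652 bp, quartiles 1000 and 2705 bp), against 9700 bp (8521 to 10763 bp, quartiles 5070 and 19181 bp) for shared regions. The 121 new shared regions lay between, with a median of 4250 bp (3005 to 5477 bp). Exactly 1000 bp, the narrowest width in the list, was held by 105 MNase-only regions (32.5%) and by 16 shared regions (3.13%). At least 4 kb was reached by 40 MNase-only regions (12.4%) and by 410 shared regions (80.2%). Together the 323 regions covered 0.706 Mb, 9.16% of the X length in the late MNase list, although they were 38.7% of its regions, while the shared regions covered 7.00 Mb. These intervals and those below cover counting error over regions only. Width belongs to the list that chose the members, and a wide region also has more bases in which to meet a sonicated one, so the widths are a description.

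**Figure D1:**
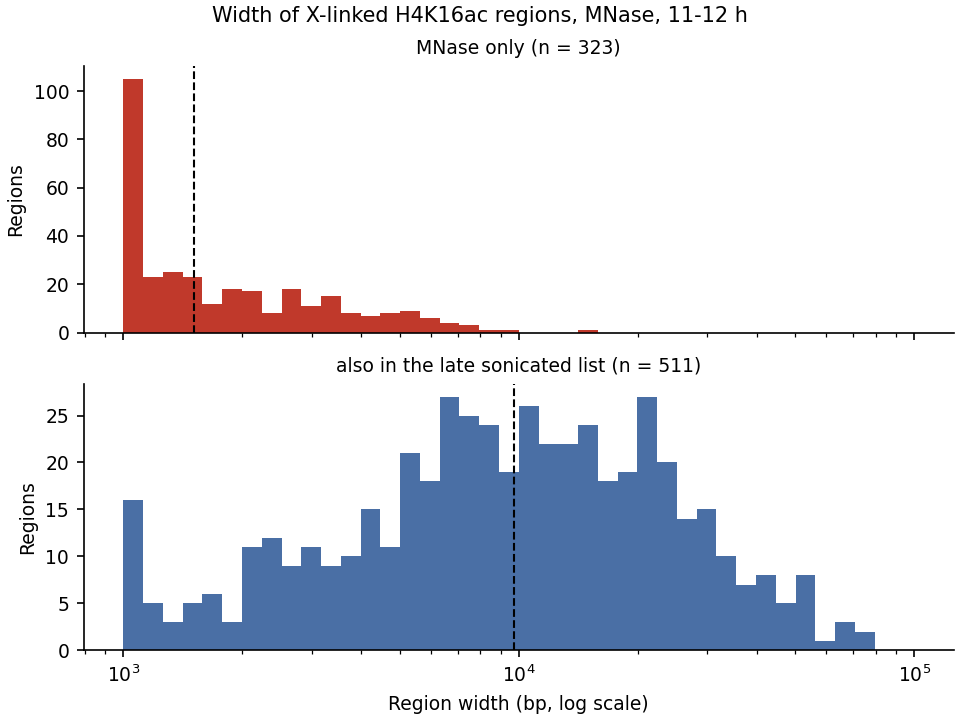
Widths of late X H4K16ac regions of the MNase list, on a log axis in base pairs, for the 323 MNase-only regions and the other 511 regions. The MNase-only regions pile up at 1000 bp and have a median of 1511 bp, against 9700 bp for the others.

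MNase-only regions seldom met any other list. Of the 323, 292 (90.4%, interval 86.7 to 93.2%) overlapped no region of the other 10 lists by 1 bp, against 55 of the 511 shared regions (10.8%). Those 55 are by definition among the 121 new ones (45.5% of them), because the MNase list of 3-4 h is one of the 10. H3K36me3, MOF or MSL2 at either stage was at 20 MNase-only regions (6.19%), 56 of the 121 (46.3%) and 424 of all shared regions (83.0%). H3K36me3 of 11-12 h was at 11 MNase-only regions (3.41%, interval 1.91 to 5.99%), at 44 of the 121 new shared regions (36.4%) and at 399 of all shared regions (78.1%); over all 834 X regions the share was 49.2%. H3K36me3 of 3-4 h was at 6 MNase-only regions (1.86%) and at 380 shared regions (74.4%), against 46.3% over all X regions. The mark of transcribed gene bodies was thus listed at few MNase-only regions at either stage.

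The complex itself was as rare. MOF of 11-12 h was at 6 MNase-only regions (1.86%, interval 0.854 to 3.99%), 18 new shared regions (14.9%) and 352 shared regions (68.9%), against 42.9% over all X regions. MOF of 3-4 h was at 3 MNase-only regions (0.929%) and at 323 shared regions (63.2%), against 39.1% over all. No MNase-only region overlapped an MSL2 region of mononucleosomal fragments at 11-12 h or at 3-4 h, which allows a share of up to 1.18% (upper Wilson bound) at each stage. Such MSL2 regions were at 216 shared regions (42.3%) at 11-12 h and at 191 (37.4%) at 3-4 h; over all X regions the shares were 25.9% and 22.9%. The 121 new shared regions were nearly as low as the MNase-only ones, with 4 (3.31%) at 11-12 h and 1 (0.826%) at 3-4 h. MSL2 peaks of subnucleosomal fragments, the shorter MNase products, were at 5 MNase-only regions (1.55%) and 112 shared regions (21.9%) at 11-12 h, against 14.0% over all. At 3-4 h they were at 1 MNase-only region (0.310%) and at 103 shared regions (20.2%), against 12.5% over all. The 121 new shared regions had 7 (5.79%) at 11-12 h and 1 (0.826%) at 3-4 h.

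MNase-only regions were also seldom listed as H4K16ac earlier. The MNase list of 3-4 h held 10 of them (3.10%, interval 1.69 to 5.60%) and 390 shared regions (76.3%), against 48.0% over all X regions. The sonicated list of 3-4 h held 7 MNase-only regions (2.17%), 25 of the 121 new shared regions (20.7%) and 396 shared regions (77.5%), against 48.3% over all.

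**Figure D2:**
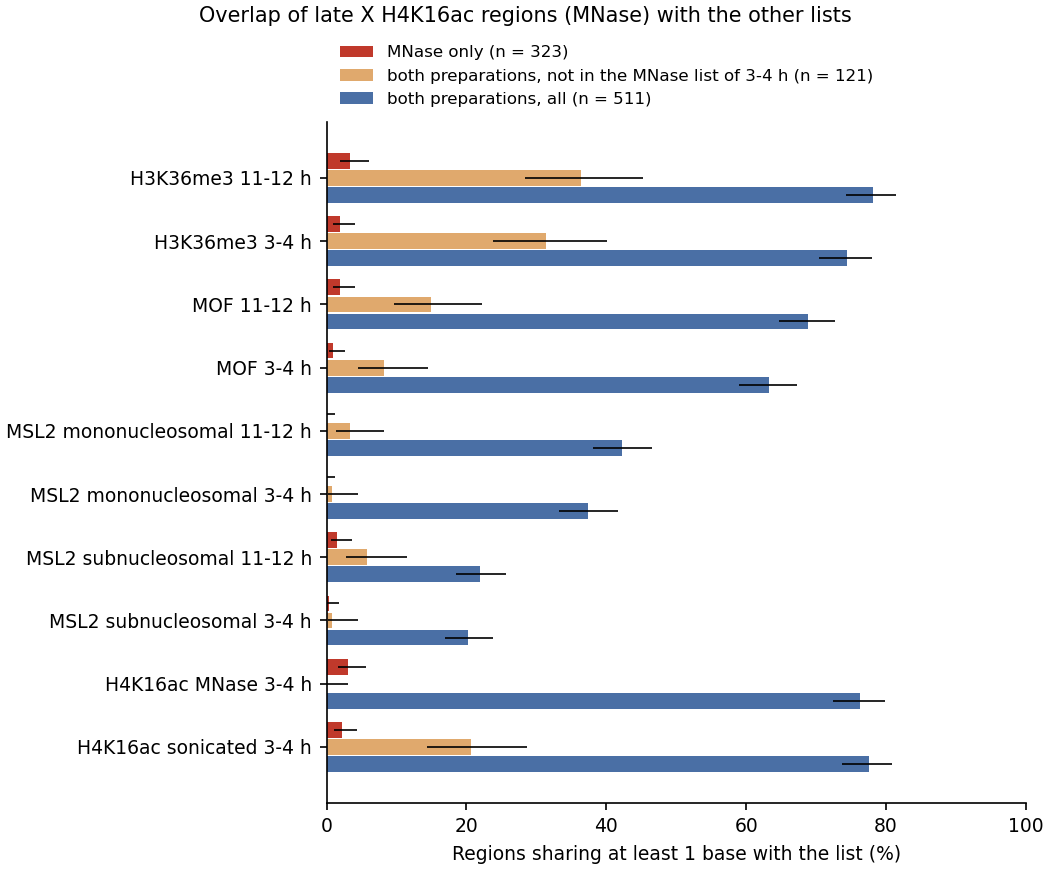
Share of late X H4K16ac regions, in percent, that overlap each of the other 10 lists by at least 1 bp, for the 323 MNase-only regions, all 511 shared regions and the 121 shared regions not listed at 3-4 h on MNase chromatin (shared regions are marked "both preparations"). Thin lines are 95% Wilson intervals; every MNase-only share is at or below 3.41%, and H3K36me3 of 11-12 h reaches 36.4% in the 121 and 78.1% in the 511.

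The low shares are tied to the rule on this chromosome, since nearly all H3K36me3, MOF and mononucleosomal MSL2 regions overlapped the sonicated H4K16ac list. Overlap here means at least 1 bp, so such a region can also extend into an MNase-only one. Of 776 X regions of H3K36me3 at 11-12 h, 757 (97.6%) overlapped a late sonicated H4K16ac region, and 19 did not. Of those 19, 10 touched an MNase-only region, as did 1 of the 757. Of 526 late MOF regions on the X, 519 (98.7%) overlapped the sonicated list, and 4 of the remaining 7 touched an MNase-only region. Of the 519, 3 touched one as well. Of 310 late MSL2 mononucleosomal regions, 309 (99.7%) overlapped it. Subnucleosomal MSL2 peaks differed: of 167 on the X at 11-12 h, 55 (32.9%) lay outside the late sonicated list, and 5 of those 55 touched an MNase-only region. At 3-4 h 12 of 116 (10.3%) lay outside it, and 1 of the 12 touched one.

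Width moved with these shares, and its part in them was not tested. For late H3K36me3 and late MOF the MNase-only share was the lower one in each of the 4 width classes. Among regions of 4 kb or more, H3K36me3 of 11-12 h was at 5 of 40 MNase-only regions (12.5%) and at 360 of 410 shared regions (87.8%). Among those of 2 kb to under 4 kb it was at 5 of 77 (6.49%) and at 31 of 63 (49.2%). At exactly 1000 bp it was at 1 of 105 MNase-only and at 5 of 16 shared regions. MOF of 11-12 h was at 1 of 40 MNase-only regions of 4 kb or more, against 322 of 410 shared regions of that width. Under 2 kb MSL2 did not follow this order. Late mononucleosomal MSL2 was at none of the 206 MNase-only and none of the 38 shared regions under 2 kb, and at 0 of 77 and 3 of 63 of those from 2 kb to under 4 kb. At 4 kb or more it was at 0 of 40 MNase-only and 213 of 410 shared regions. Late subnucleosomal MSL2 was at 2 of 105 MNase-only and 0 of 16 shared regions of exactly 1000 bp, and at 1 of 101 and 0 of 22 of those above 1000 bp and under 2 kb.

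The 20 MNase-only regions with H3K36me3, MOF or MSL2 at either stage are each named here, as the exceptions. H3K36me3 of 11-12 h was under 11 of them, 1000 to 9619 bp wide. The widest lay at dpr18, a gene of the Dpr family of immunoglobulin-domain cell surface proteins (X 16063916 to 16073534). It covered 97.3% of the body of dpr18 and 98.9% of that of Nipsnap beside it, and carried H3K36me3 at both stages; at 11-12 h that mark lay across the boundary of the 2 genes in the plot of 4 loci. The next widest were at tyn (5254 bp), CG3655 (4933 bp), Septin4, which encodes a septin of the cytoskeleton (4917 bp), and Pits (4301 bp). The remaining 6 were at CG42258, the noncoding gene lncRNA:CR45668, CG1677, RhoGAP18B, alpha-Man-Ia and HIP-R. At 3-4 h the mark was at dpr18, Pits, CG42258, CG1677, alpha-Man-Ia and fog, and of these only fog lacked it at 11-12 h.

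MOF of 11-12 h was under 6 MNase-only regions. The widest of all 323, 14177 bp at CG43155 (X 11459724 to 11473900), was one of them. It shared 14115 bp with that gene, which is 16.7 kb long, lay 841 bp from the nearest late sonicated region and 714 bp from the nearest MSL2 mononucleosomal region, and had no H3K36me3. In the plot of 4 loci the MOF region reached its edge only and lay mostly over the neighbouring shared region. The others were at lncRNA:CR45668 (3175 bp), Crg-1 (3049 bp), between genes 645 bp from CG1529 (2195 bp), and at HIP-R and HIP, 1000 bp each. Subnucleosomal MSL2 of 11-12 h was at HIP-R, HIP, CG43740, Cyp4g15, which encodes a cytochrome P450, and between genes near GCS2alpha. At 3-4 h MOF was at HIP-R, HIP and Gem4b, and subnucleosomal MSL2 at HIP. HIP and HIP-R flank Crg-1 within X 3791553 to 3801652, and their 3 regions account for 3 of the 6 with MOF and for 2 of the 5 with MSL2. HIP and HIP-R are duplicate copies of a gene for an Hsc70-interacting protein, so reads could be split or shared between them, and their marks are uncertain.

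The 10 regions already listed on MNase chromatin at 3-4 h were led by Tsp5D, a tetraspanin gene (5408 bp, 91.9% of the gene body under MNase-only regions), lncRNA:CR45668 (4327 bp), f, the actin-bundling gene forked (3695 bp), Crg-1 and chas (2996 bp). The other 5 were at otu, Flo2, lncRNA:CR44895, HIP-R and HIP. The 7 regions in the sonicated list of 3-4 h were at lncRNA:CR45668, Crg-1, cyr, prage, CG44774 and Ca-alpha1T and near CG1529.

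MNase-only regions lay farther from MSL2 than shared regions did, though 90.4% were within 50 kb of it. The median distance, edge to edge, to the nearest late MSL2 mononucleosomal region was 17857 bp (15606 to 20001 bp), against 2148 bp (1148 to 3407 bp) for shared regions. For the 121 new shared regions it was 15775 bp (12770 to 19712 bp), and this interval overlaps that of the MNase-only regions. Within 10 kb of such an MSL2 region were 91 MNase-only regions (28.2%), 39 of the new shared ones (32.2%) and 347 of all shared ones (67.9%). Within 50 kb were 292 MNase-only regions (90.4%), 99 of the new shared ones (81.8%) and 473 of all shared ones (92.6%). The nearest to MSL2 were the region by CG1529 at 464 bp, CG43155 at 714 bp, CG44774 at 956 bp, Hira, which encodes a chaperone of histone H3.3, at 1017 bp, and dlg1, which encodes the scaffold protein Discs large, at 1437 bp.

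MOF and H3K36me3 were nearer. The median distance of MNase-only regions was 9986 bp (8372 to 11555 bp) to late MOF and 7872 bp (6694 to 8730 bp) to late H3K36me3. For the 121 new shared regions these were 6330 bp and 1321 bp, and for all shared regions both medians were 0. The late X lists held 310 mononucleosomal MSL2, 526 MOF and 776 H3K36me3 regions, and the part of list size in this order was not tested. Nearly all of these regions overlapped the sonicated list that the rule used for absence, so the distances to all 3 are a description.

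**Figure D3:**
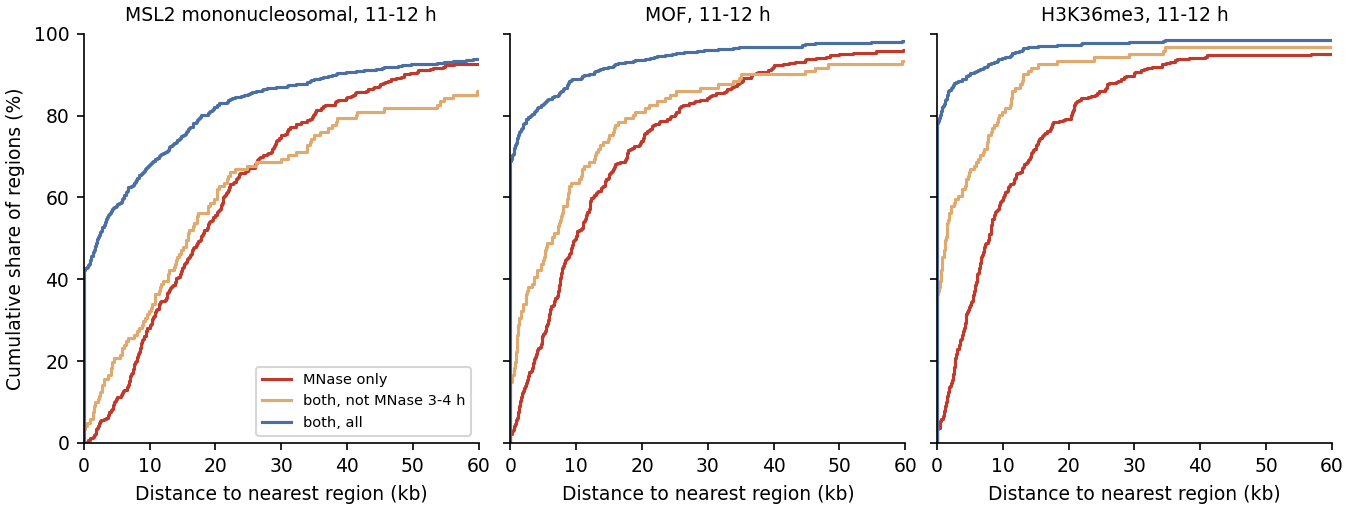
Cumulative share of late X H4K16ac regions, in percent, within a given edge-to-edge distance (kb, linear axis) of the nearest late MSL2 mononucleosomal, MOF or H3K36me3 region, for MNase-only regions, shared regions ("both, all") and the 121 new shared regions. The median to MSL2 is 17857 bp for MNase-only regions, against 2148 bp for shared regions.

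Most MNase-only regions stood within 5 kb of a sonicated region they did not touch. The same distance for other X sequence is not given here, so they cannot be called unusually close. The nearest late sonicated region was a median of 4165 bp away (quartiles 2030.5 and 9229.5 bp). It was within 1 kb for 46 MNase-only regions, within 5 kb for 178 (55.1%) and within 50 kb for 319. At the edge of the rule, the 3 nearest were at chas (32 bp), prage (38 bp) and fs(1)N, an eggshell gene (82 bp). The shared regions with the fewest bases in common were at CG14052 (10 bp), Tsf1, which encodes a transferrin (72 bp), and NFAT, a transcription factor gene (79 bp). The 3 farthest MNase-only regions were at kirre, a myoblast fusion adhesion gene (207891 bp), fog, which encodes the secreted gastrulation signal Folded gastrulation (178845 bp), and CG12730 (85242 bp).

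The regions lay mostly inside genes. Of the 323, 278 (86.1%, interval 81.9 to 89.4%) overlapped the body of a protein-coding gene, against 506 shared regions (99.0%) and 94.0% over all X regions. Wholly within the body of a protein-coding gene were 232 (71.8%), against 69 of the 121 new shared regions (57.0%) and 111 of all shared regions (21.7%). By the protein-coding gene each overlapped most, 43 held an end of that gene and 3 spanned it. A further 12 met a noncoding gene only and 33 lay between genes. Other genes under the same region were not counted here, such as CG2854, which lay wholly under a region inside Raf. Narrow regions fit inside genes more readily, and at matched width the order was not the same throughout. At exactly 1000 bp 66.7% of MNase-only and 81.2% of shared regions were inside a gene. At 4 kb or more these shares were 65.0% and 13.4%.

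The genes were long. MNase-only regions touched 201 of the 2197 protein-coding genes on the X (9.15%), with a median length of 14.9 kb (11888 to 20950 bp), against 2.94 kb for genes touched by shared regions and 2.52 kb for all X genes. Of the 198 X genes over 20 kb, 88 (44.4%, interval 37.7 to 51.4%) were touched, and of the 1999 genes of 20 kb or less 113 (5.65%, interval 4.72 to 6.75%). A longer gene offers more room for a region, and the part of length in this difference was not tested. Late sonicated H4K16ac lay elsewhere in 108 of the 201 genes, so that a gene could hold both kinds.

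The widest members show the range of genes. After CG43155 and dpr18 came mgl, which encodes the endocytic receptor Megalin (8413 bp, X 9374917 to 9383329), Lsd-2, a perilipin of lipid droplets (7832 bp, X 15067055 to 15074886), and bves (7613 bp, X 21073958 to 21081570). Next were lncRNA:CR45668 (7204 bp), the mucin gene Muc14A (6922 bp), Cyp4g15 (6900 bp) and a region between genes, 4718 bp from Idgf4, which encodes an imaginal disc growth factor (6878 bp). RhoGAP19D had 6645 bp, SK, a calcium-activated potassium channel, had 6280 bp and inaE, a diacylglycerol lipase, had 6011 bp. CG3726 had 5970 bp, and cac and mnb had 5869 and 5716 bp. Of these 15, only CG43155 had MOF, only dpr18 had H3K36me3 and only Cyp4g15 had MSL2; mgl, Lsd-2, bves, lncRNA:CR45668 and Muc14A are the 5 widest with none of the 3 at any stage.

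Several members often stood in 1 gene. At least 2 were in 65 genes and at least 3 in 27, and these 27 genes held 100 of the 323 (31.0%). The gene with the most was cac, which encodes the pore-forming subunit of the presynaptic voltage-gated calcium channel. It held 13, the widest at its low-coordinate side (X 11931663 to 11937531) and the narrowest 1000 bp, covering 25.9 kb or 48.1% of its 53.8 kb. Across cac there was no late sonicated H4K16ac, no MOF, no MSL2, no H3K36me3 and no H4K16ac at 3-4 h in either preparation. Ptp10D, a receptor tyrosine phosphatase gene, held 8 (12.8 kb, 23.2% of its body). Unlike cac it also had 3 late sonicated regions, 1 late MOF and 1 late H3K36me3 region. The sodium channel gene para and the memory gene rsh (radish) held 5 each, and in bves 4 covered 58.1% of the body.

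Runs of MNase-only regions could pass single genes. Counting neighbours at any distance with no shared region between them, the 323 fell into 159 runs. Of these runs, 81 were single regions and 18 held 4 or more (96 regions). The longest run had 15, from cac to tsg, a BMP modulator gene, over 57.8 kb (X 11931663 to 11989423). The next were 8 in Ptp10D over 41.4 kb and 8 from fne to rsh over 144.4 kb. In the latter only 16328 bp lay under MNase-only regions, so a run need not be a dense cluster. By 1 Mb bins, the most were the 38 between 11 and 12 Mb, where they were 55.9% of the late MNase regions.

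**Figure D4:**
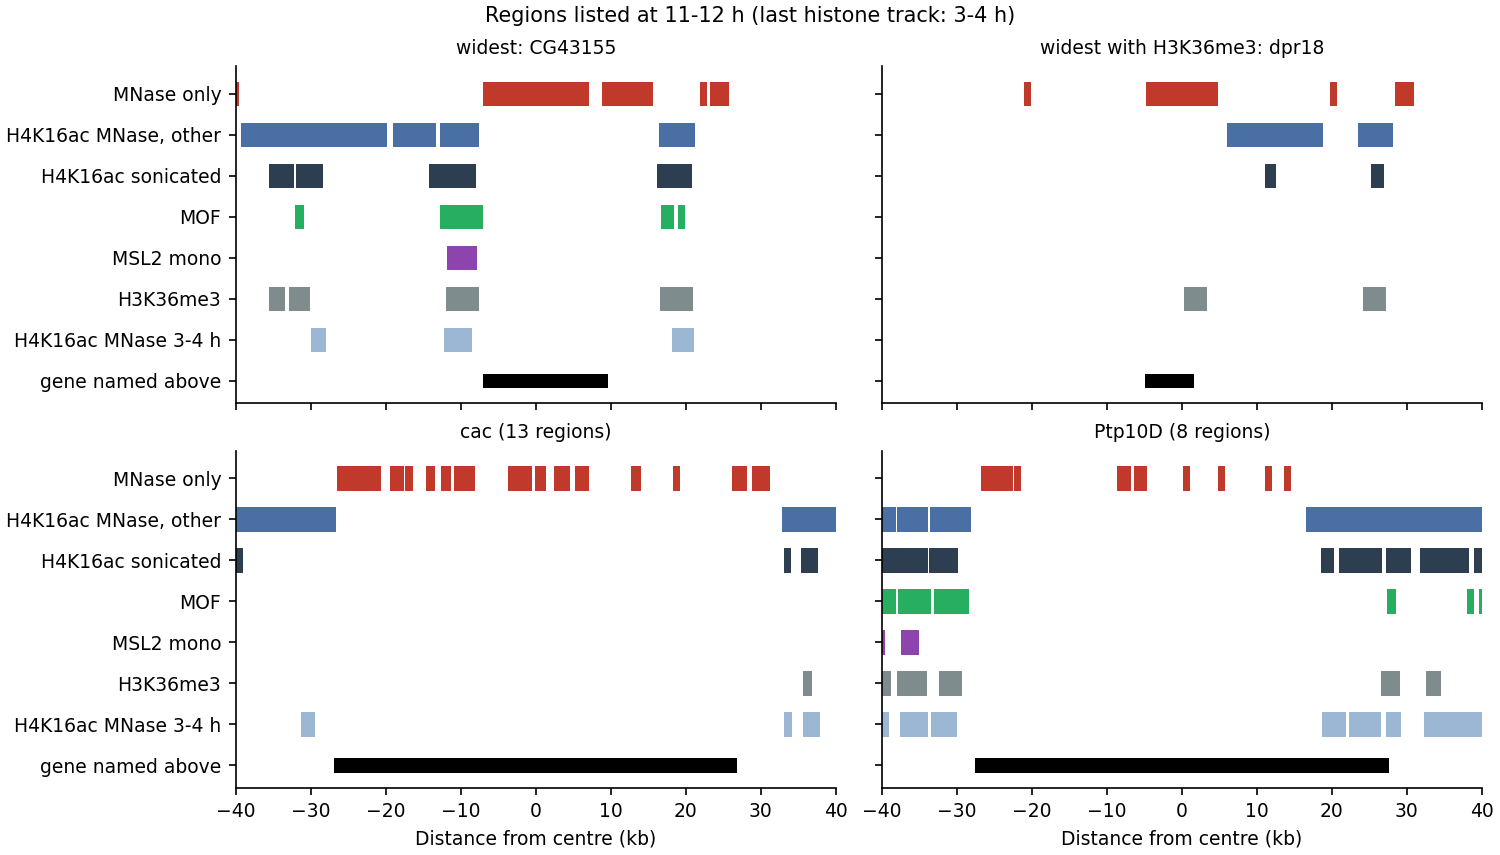
Region lists around 4 MNase-only loci, with the distance from each locus' centre in kb on the x axis and 1 row per list; the black bar is the named gene. In cac the late MNase row is broken into many narrow regions over an empty late sonicated row, while the region at CG43155 is a single one of 14177 bp.

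For 74 genes, MNase-only regions were the only late H4K16ac. These genes had a median length of 4.13 kb, and in 36 of them such regions covered at least 50% of the body. Other marks were sparse there as well: 8 of the 74 had late H3K36me3, 4 late MOF, 1 late mononucleosomal MSL2 and 9 any H4K16ac at 3-4 h. Over all 2197 X genes, 55.5% had late H3K36me3, 54.7% late MOF, 20.6% late mononucleosomal MSL2, and 1391 genes had H4K16ac at 3-4 h. The 74 were chosen by having no late sonicated H4K16ac, so their low counts are a description. On the X nearly all late H3K36me3, MOF and mononucleosomal MSL2 regions overlapped a late sonicated region by at least 1 bp. The genes were varied, and those given next were chosen after their values were seen. Covered from end to end were 8, CG3823, Ser7, CG2854 and CG12985 among them. Others were Lsd-2 (81.2% of the body), gd, a serine protease gene of the dorsoventral pathway (74.9%), and the eggshell genes Cp7Fa (76.7%) and Cp7Fb (86.9%). Some of these lie within a longer gene that has shared and late sonicated H4K16ac regions elsewhere. CG2854 lies in Raf, CG12985 in mnb, and Cp7Fa and Cp7Fb in CG33223. The synaptic vesicle genes stnA and stnB, which share 1 span, had 3 regions over 27.4%.

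Of the gene lists examined, MNase-only regions met the neural list most often. They touched 10 of 19 X-linked neural genes, against 9.15% of all X genes. These were cac with 13 regions and para with 5 (9.06% of its body), the potassium channel gene Sh with 3 (2.73%) and fne, an ELAV-family RNA-binding protein gene, with 2 (27.7%). Also touched were Nrg, which encodes the adhesion molecule Neuroglian, norpA, the phospholipase C of phototransduction, and nAChRalpha3, a nicotinic receptor subunit gene. The adenylyl cyclase gene rut, the kinase gene mnb and trol, which encodes perlecan, complete the 10. All 10 were over 20 kb: 10 of the list's 15 long genes were touched and 0 of its 4 shorter ones, against 44.4% of all long X genes. No late sonicated region lay in cac, norpA or trol, and trol alone had no other late H4K16ac.

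The other lists were short, and their counts stand beside the 9.15% of all X genes that were touched. MNase-only regions touched 2 of 9 muscle and adhesion genes, wupA, which encodes troponin I (46.2% of the body), and sgg, the GSK3 kinase gene. Of the 13 genes in the enzyme and pigment list 1 was touched, f, which is an actin-bundling gene although it stands in that list. None was touched of 21 pattern and transcription factor genes, of which 8 are over 20 kb, of 6 sex determination and X counting genes, or of the 3 dosage compensation genes mof, lncRNA:roX1 and lncRNA:roX2. Those 3 lay wholly under shared regions, which left no room for an MNase-only one. No late H4K16ac region of either preparation lay in 12 of the 21 pattern genes and 3 of the 6 sex determination genes. That held for 4 of the 19 neural, 0 of the 9 muscle and adhesion, and 3 of the 13 enzyme and pigment genes.

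The same rule on the autosomes gave regions that mostly carried H3K36me3. On the arms 2L, 2R, 3L and 3R it took 297 of 996 late MNase regions (29.8%, interval 27.1 to 32.7%), against 38.7% on the X. Late H3K36me3 was at 11 of the 323 X regions (3.41%) and at 247 of the 297 autosomal ones (83.2%, interval 78.5 to 87.0%). For H3K36me3 of 3-4 h the shares were 1.86% on the X and 80.5% on the arms. Sonicated H4K16ac of 3-4 h was at 7 X regions (2.17%) and at 189 autosomal ones (63.6%), and MNase H4K16ac of 3-4 h at 10 (3.10%) and 75 (25.3%). MOF of 11-12 h was rare in both, at 1.86% on the X and 4.71% on the arms. The same shares over all 996 late MNase regions of the arms are not given here. The values of the 297 therefore cannot be called particular to them. Median widths were 1511 bp on the X and 1000 bp on the arms. The remaining late MNase regions had medians of 9700 bp on the X and 1568 bp on the arms. The room for H3K36me3 outside the sonicated list differed as well: 97.6% of late H3K36me3 regions on the X overlapped late sonicated H4K16ac, against 41.1% of the 3240 on the arms.

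**Figure D5:**
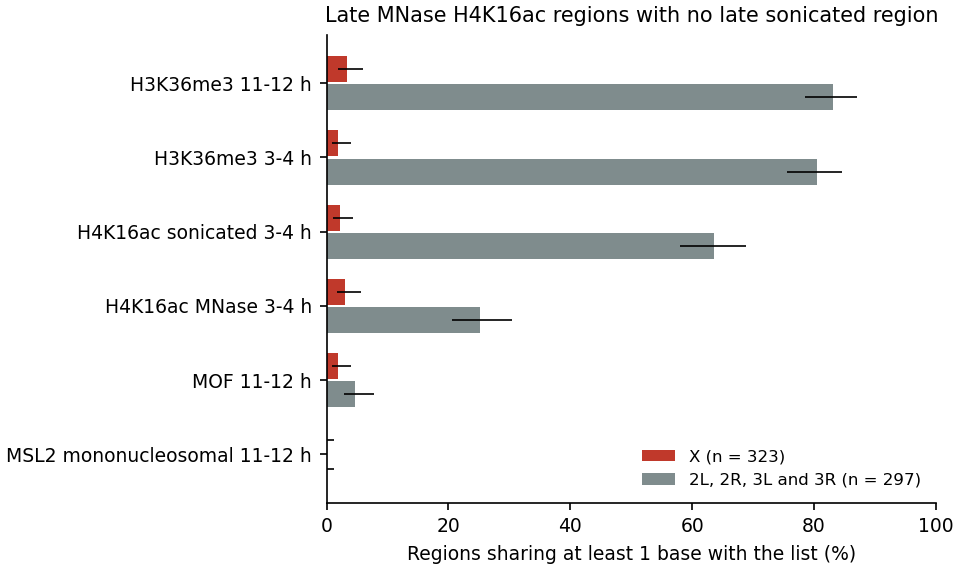
Share, in percent with 95% Wilson intervals, of late MNase H4K16ac regions without late sonicated H4K16ac that overlap each of the other lists, for 323 regions on the X and 297 on the autosome arms. H3K36me3 of 11-12 h is at 3.41% on the X and 83.2% on the arms.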

How the data were processed

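The data are 12 region lists made by the authors from 42 samples, in deposited files that give a chromosome, start and end per region on the dm6 build, per the submitters' processing notes. Those notes name Bowtie2 2.2.9, SAMtools and HOMER without their roles; for the settings of region calling and the use of replicates and inputs, the entry is: not given in the sources used here. Each list stands for a whole group, so depth is unknown and there is no replicate error. No value per sample was used, and no test was made.

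Positions were counted from 1 and chromosomes compared as named. Overlap needed 1 bp; distances run from edge to edge, with 0 for overlap. Shares have 95% Wilson intervals and medians 95% order-statistic intervals, both over regions, which are not replicates. Genes came from the RefSeq gene table of the Release 6 plus ISO1 MT assembly, which has the dm6 sequence, using protein-coding genes unless stated. Scripts ran in Python 3.11.15 with scipy 1.17.1 for intervals, numpy 2.4.6 and pandas 2.3.3 for the tables, and figures were drawn with matplotlib 3.10.9. The overlap and distance steps were tested on simulated data, where 20 of 20 simulations matched a count made base by base.

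A region is named by the protein-coding gene it overlaps most, then by any gene, else by the nearest one. The rule named the 15 widest members; the 5 widest with late H3K36me3, with late MOF, with none of H3K36me3, MOF and MSL2, and with MNase H4K16ac of 3-4 h; the 5 nearest to MSL2; the 3 nearest to and 3 farthest from sonicated regions; and touched genes of the fixed lists. Other named genes were chosen after their values were seen. Members and gene lists were chosen with earlier results of these data known. The alternatives changed what removes a region, joined neighbours, kept wider members only, or changed overlap, distance or gene type. A promoter motif search was planned and not run, since promoter sequence was not used here.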

Additional observations from a re-analysis of the deposited data

How the results depend on the processing

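Of 126 values recomputed under 11 alternatives, 94 stayed within the interval of the reported value, or for a count within 1.5 times it, and 32 moved. The number of regions was 172 where MNase regions within 1 kb were joined first, 161 in the widest 50% and 117 at 2 kb or more. In those 2 wider subsets the median width was 2705 and 3270 bp, late H3K36me3 was at 6.21% and 8.55%, MOF of 3-4 h at 0% and 0%, subnucleosomal MSL2 of 3-4 h at 0% and 0%, the median distance to late MOF was 8018 and 7860 bp, and 45 and 37 genes had no other late H4K16ac. At 2 kb or more, H3K36me3 of 3-4 h was at 4.27%, and the median distance was 13909 bp to MSL2 and 3859 bp to sonicated H4K16ac. Where a gap of up to 1 kb counted as overlap, the shares were 6.50% and 4.95% for H3K36me3 of 11-12 h and 3-4 h, 5.57% for MOF at each stage, and 8.98% and 10.5% for MNase and sonicated H4K16ac of 3-4 h. The last share was 0% where a sonicated region of either stage removed a region, by construction, and 5.44% where removal needed 50% of the shorter region. The distance to late sonicated H4K16ac was 5245 bp where one within 1 kb also removed a region. After joining, it was 6101.5 bp, and 12443.5 bp to MOF. The distance to MSL2 was 21377.5 bp between midpoints and 13238 bp to any MSL2 list. Genes of every type were met by 89.8% of regions. Apart from these constructions, the cause of each move was not tested. Leaving out replicates could not be computed, and no paired analysis was possible because the lists pool the replicates. Weak regions below the authors' threshold in either list are not seen, so absence from a list is not absence of the mark.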

Other observations

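The opposite set was small. Of 881 late sonicated X regions, 38 (4.31%, 95% Wilson interval 3.16 to 5.86%) met no late MNase region. Their median width was 1000 bp and the widest were at CG32813 (3859 bp), CG11409 (3496 bp) and CG43901 (2551 bp). Of the 38, 14 were in the sonicated list of 3-4 h (36.8%) and 3 had late H3K36me3. None overlapped late MOF or late mononucleosomal MSL2. The shares over all 881 are not given here, so these counts are a description and cannot be called particular to the 38.

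On chromosome 4 the rule took 10 of 33 late MNase regions (30.3%, interval 17.4 to 47.3%), and 5 of the 10 had late H3K36me3. The share with that mark over all 33 is not given here.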
